A study of Mus musculus with 4 samples.

Results

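Potassium channel genes were followed in RNA-seq libraries of primary mouse astrocytes, as the protein-coding genes whose symbol starts with Kcn. These were 81 of the 25393 listed genes, of which 16592 were protein coding. Another 3 Kcn symbols belong to non-coding genes and were left out. The libraries came from C57BL/6 pups taken at postnatal day 1, with cells of cortex and hippocampus grown together. There were 2 libraries from wild-type (WT) cultures and 2 from cultures labelled tet1-/-, a constitutive knockout (KO) of the DNA dioxygenase Tet1. Per the labels, 2 mice went into an isolation, the cells were untreated and grew for about 7 days, and contaminating cells were shaken off at 260 rpm, with a further 24 h before RNA was taken. The study describes the libraries of a genotype as biological repeats, and the labels do not say whether they came from separate cultures or litters. The p-values set a difference against the spread between the 2 libraries of each label, which each test moderates with the spread of other genes. Further libraries were not analysed here. Depth, as reads assigned to genes, was 18749610 and 22673555 in WT, against 20702980 and 22403163 in labelled KO.

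Potassium channels let potassium ions cross the membrane and set the resting potential of a cell. Astrocytes are known for a membrane dominated by potassium conductance, through which they take up the potassium that active neurons release. The inward rectifier encoded by Kcnj10 (Kir4.1) carries most of this conductance in the mature brain, next to two-pore leak channels. Voltage-gated and calcium-activated channels are better known from neurons, and auxiliary subunits change the traffic and gating of the pore subunits. Of the 81 genes, 13 encoded inward rectifiers (Kcnj), 11 two-pore channels (Kcnk), 28 voltage-gated pore subunits and 6 silent subunits that only assemble with voltage-gated ones. Another 8 made up the class called calcium- and sodium-activated channels here, and 15 encoded auxiliary subunits. Classes were assigned by symbol, and the class of 8 also holds Kcnu1, placed there by its symbol alone.

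The label was checked before any comparison. Tet1 had 266 and 121 normalized counts (reads divided by the size factor of the library) in WT, against 173 and 463 in labelled KO. It was not lower there (log2 fold change 0.66, standard error 0.65, adjusted p = 0.691, limma). For that reason the libraries are called labelled KO, and each direction below rests on the label. Whether transcripts still hold the targeted part cannot be read from these gene counts. Xist, the RNA of the inactive X chromosome, had 8.54 and 0.92 normalized counts in WT, against 2896 and 13367 in labelled KO. The Y-linked genes Ddx3y, Eif2s3y, Kdm5d and Uty were at 178 normalized counts or more in both WT libraries, at 0 in labelled KO replicate 1, and between 117 and 314 in replicate 2. Sex-linked expression thus differed with the label, and both cannot be told apart here.

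Markers of astrocytes were abundant in each library. Their 10 genes summed to 1901 and 1773 FPKM (recovered reads scaled by gene length and by the reads on genes of the library) in WT, with Gfap the most abundant. The sum was 3028 in labelled KO replicate 1 and 477 in replicate 2, of which Gfap held 1871 and 117. Without Gfap the sums were 1213 and 1008 FPKM in WT, against 1157 and 360 in labelled KO, so that replicate 1 lay within WT and replicate 2 below it. Of the 10 astrocyte markers, 5 were lower without overlap (Aldh1l1, Aqp4, Slc1a2, Slc1a3 and Sox9), beside 25.4% of all tested genes, and 1 was higher, beside 22.5%, with a median log2 fold change of -0.73. Of the same 10, 0 were higher, beside 4.54% of all tested genes, and 2 lower, beside 9.18%, at an unadjusted p under 0.05 (limma). Microglial markers summed to 72.9 and 115 FPKM in WT, against 26.2 and 12.9 in labelled KO, with 11 of 12 genes lower without overlap, beside 25.4% of all tested genes, and 10 lower at an unadjusted p under 0.05 (limma), beside 9.18%. Of these, P2ry12 had a library at 0 reads. Proliferation markers were higher without overlap in 10 of 10 genes, beside 22.5% of all tested genes, from sums of 2.80 and 13.7 FPKM in WT to 37.7 and 65.4 in labelled KO, with Top2a the most abundant and none at 0. Markers of ependymal cells summed to 142 and 207 FPKM in WT, against 157 and 32.0 in labelled KO, and without Foxj1, which led this list, to 26.2 and 26.9 FPKM in WT, against 22.6 and 2.79. Of the 7 genes, 4 were lower without overlap, beside 25.4% of all tested genes, and 2 were lower at an unadjusted p under 0.05 (limma), beside 9.18%, with a median log2 fold change of -1.27. Tmem212 had a library at 0. The part of these cell mixtures in the channel differences was not tested. In bulk RNA, fewer cells of a type and less RNA per cell cannot be told apart.

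Kcnj10 was the most abundant potassium channel gene in each of the 4 libraries. It had 139 and 183 FPKM in WT, 178 in labelled KO replicate 1 and 30.4 in labelled KO replicate 2. By the mean over the 4 libraries it ranked 298 among all listed genes, above 98.8% of them. The gap to the next gene was wide in 3 libraries and narrow in labelled KO replicate 2, where Kcne1l had 23.9 FPKM and Kcnk2 had 23.0. In WT, the next in the order were Kcnk1 (TWIK-1), a two-pore leak channel, at 40.8 ± 6.27 FPKM, and Kcnk2 (TREK-1), a two-pore channel opened by membrane stretch and lipids, at 33.6 ± 3.98 (SD, n = 2). Kcne1l, an X-linked gene of a small auxiliary subunit, had 20.9 ± 19.7 FPKM, and Kcnd3 (Kv4.3), a channel of transient A-type currents, had 20.2 ± 7.92 (SD, n = 2). The ranges of the WT libraries overlapped between Kcnk1 and Kcnk2, between Kcnk2 and Kcne1l and between Kcne1l and Kcnd3, so these neighbours cannot be ordered, while Kcnj10 stood clear of Kcnk1. Of the 11 neighbouring pairs among the 12 highest genes in WT, 6 overlapped in this way.

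**Figure D1:**
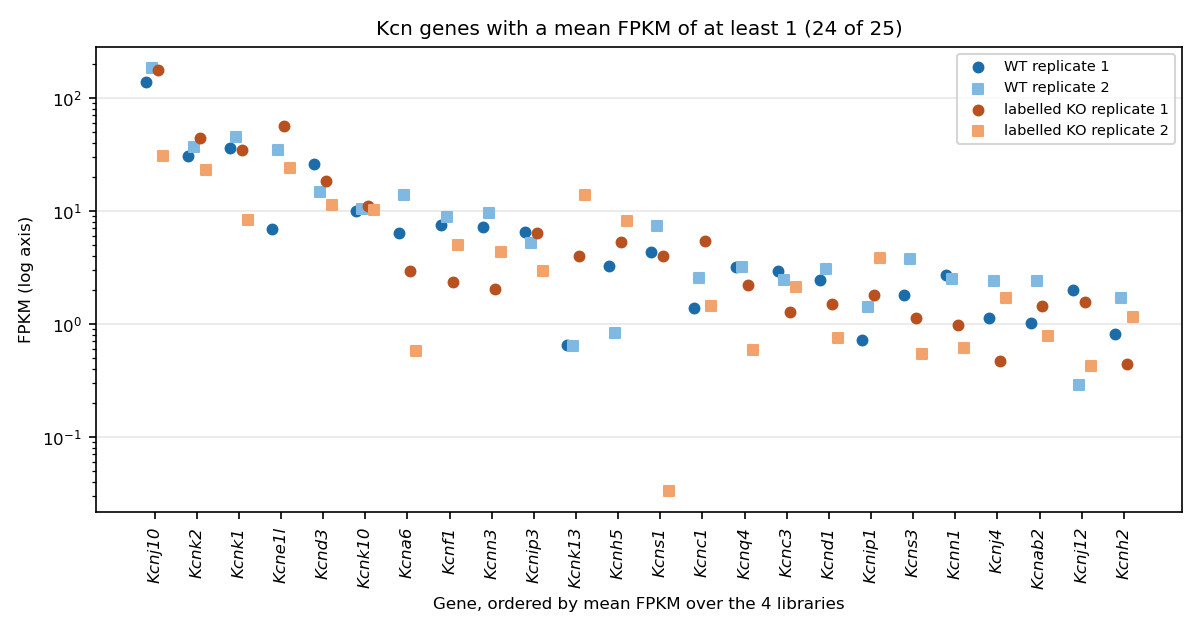
FPKM (log axis) of 24 of the 25 potassium channel genes with a mean of at least 1 FPKM, with 1 point per library and genes ordered by their mean. Kcnj10 lies above all others in each library, and the point of labelled KO replicate 2 falls well below the other 3 for Kcnj10, Kcnk1, Kcna6 and Kcns1.

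Most of the family was expressed at low levels. A mean of at least 10 FPKM was reached by 6 genes, at least 5 by 10 genes and at least 1 by 25 genes. For 28 genes the mean was under 0.1 FPKM, and in 11 genes no library had more than 3 reads, the detection floor used here. The mean of at least 1 normalized count that the tests required was met by 73 of the 81 genes. The 8 genes below it were Kcna7, Kcnb2, Kcng3, Kcnj5, Kcnj6, Kcnk9, Kcnmb3 and Kcnq1, each with at most 2 reads in a library. Another 13 annotated Kcn genes were not analysed here. Kcnma1, the large-conductance calcium-activated channel (named after its values were seen), had 0 and 0.023 FPKM in WT, against 0.011 and 0.016 in labelled KO. These values came from 0 to 9 reads, so a difference was not detectable at this depth.

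Kcnj10 alone held 43.3% and 44.3% of the summed FPKM of the family in WT and 44.3% in labelled KO replicate 1, but 18.4% in labelled KO replicate 2. The family as a whole summed to 322 and 414 FPKM in WT, 402 in labelled KO replicate 1 and 165 in labelled KO replicate 2. Two-pore channels summed to 79.2 and 93.9 FPKM in WT, against 94.6 and 57.4 in labelled KO. For calcium- and sodium-activated channels both libraries labelled KO, at 3.70 and 5.47 FPKM, were below both WT libraries, at 10.7 and 12.9. Most of this sum was Kcnn3, at 7.15 and 9.57 FPKM in WT, against 2.04 and 4.28 in labelled KO. Silent subunits were arranged as the sum of that class, at 13.7 and 19.9 FPKM in WT, against 7.50 and 5.62 in labelled KO. So were voltage-gated pore subunits, at 56.4 and 51.2 FPKM in WT, against 45.8 and 29.3 in labelled KO. These sums were not tested, and 47.9% of all tested single genes did not overlap between the labels in normalized counts. Auxiliary subunits overlapped between the labels, with 17.6 and 47.2 FPKM in WT, against 67.2 and 33.7 in labelled KO, and Kcne1l was the largest member in each library.

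**Figure D2:**
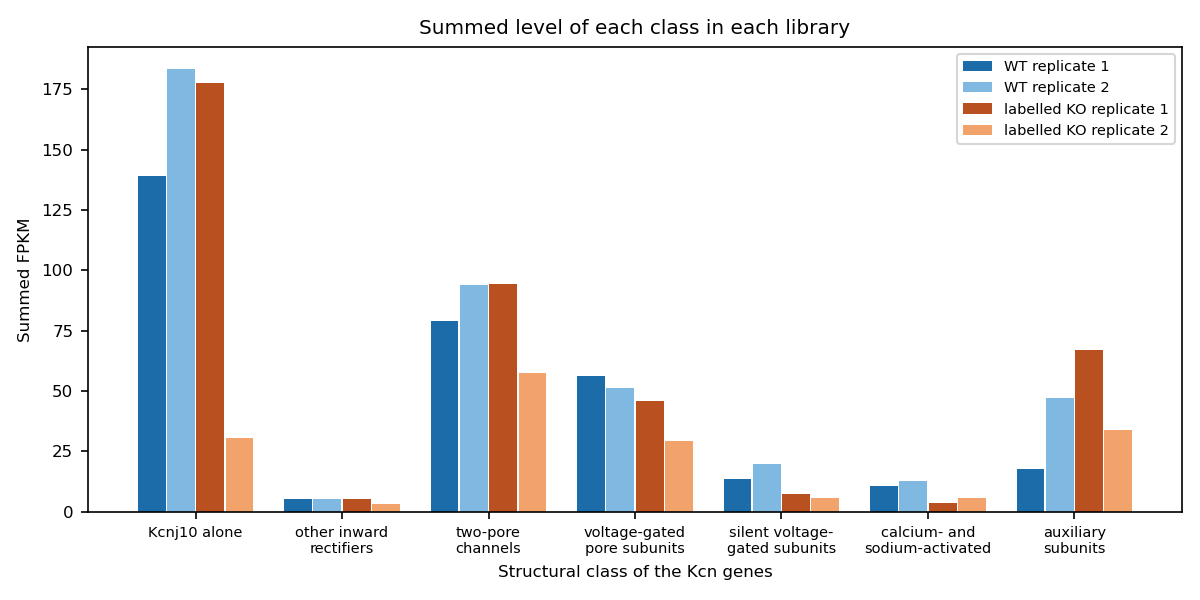
Summed FPKM of Kcnj10 alone and of each structural class of the other potassium channel genes, with 1 bar per library. Kcnj10 stands between 139 and 183 FPKM in 3 libraries and at 30.4 in labelled KO replicate 2. The sums of voltage-gated, silent and calcium- or sodium-activated channels are lower in both libraries labelled KO than in both WT libraries. These sums were not tested, and 47.9% of all tested single genes did not overlap between the labels in normalized counts.

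The question of the design was whether astrocytes labelled KO differ from WT astrocytes in gene expression, and genotypes were compared over all tested genes at once. After adjustment over the 22094 tested genes, limma called 0 of the 73 tested Kcn genes at an adjusted p under 0.05, against 0% of all tested genes. The lowest adjusted p was 0.159 in the family and 0.0777 over all genes. At an unadjusted p under 0.05 there were 16 Kcn genes, beside 13.7% of all tested genes. Of these, 4 were higher in the libraries labelled KO, beside 4.54% of all genes, and 12 were lower, beside 9.18% of all genes. The median log2 fold change was -0.59 over the tested Kcn genes and -0.07 over all tested genes. With 2 libraries per label, an exact two-sided permutation test of 1 gene cannot give a p below 0.333. DESeq2 on the recovered reads called 3 Kcn genes at an adjusted p under 0.05 (Kcnk13 and Kcnk3 higher, Kcnq3 lower), beside 6.26% of the genes it tested, 1.64% higher and 4.62% lower. edgeR called 0, beside 0% of all genes. At an unadjusted p under 0.05 it had 13 Kcn genes beside 12.4% of all genes, with 3 higher beside 4.23% and 10 lower beside 8.14%. The balance of directions was different in 1 of 3 other scalings. After quantile normalization, which moved the median of all genes from -0.07 to 0.08, 7 Kcn genes were higher, beside 6.41% of all genes, and 5 lower, beside 6.74%, at an unadjusted p under 0.05. Scaling by the median log ratio gave 4 higher and 12 lower, and scaling to equal sums gave 3 and 12. Relative to the median of all genes, the Kcn median was at -0.52 as deposited and at -0.30 after quantile normalization. It was at -0.71 without labelled KO replicate 1 and at -0.076 without labelled KO replicate 2. With 1 library left out, 1 label has a single library, which is assumed to vary like the pair of the other label, and the fit has 1 residual degree of freedom before moderation. Such fits gave other counts in the family and over all genes. Without WT replicate 1 there were 0 lower Kcn genes beside 3.90% of all genes, and without WT replicate 2 there were 0 beside 4.06%. Without labelled KO replicate 1 there were 18 beside 13.7%, and without labelled KO replicate 2 there were 7 beside 9.28%.

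Inward rectifiers pass potassium more easily into the cell than out of it and hold the membrane near the potassium equilibrium. Kcnj10 (ENSMUSG00000044708) lies on chromosome 1 of mm10 from 172341210 to 172374085 on the plus strand, without an overlapping annotated gene. Its libraries had 15066 and 20678 normalized counts in WT, against 21307 and 3320 in labelled KO. On this scale labelled KO replicate 1 was above both WT libraries, while in FPKM it lay between them. Replicate 2 was below both on either scale, and the label groups overlapped. The log2 fold change was -1.07 (standard error 0.88, 95% interval -3.28 to 1.14, adjusted p = 0.624, limma). It was -0.54 in DESeq2 and -0.56 in edgeR, and in limma -2.41 without labelled KO replicate 1 and 0.27 without labelled KO replicate 2. Kcnj16 (Kir5.1), which forms mixed channels with Kir4.1 and is named for that reason after its values were seen, had 39.5 and 72.6 normalized counts in WT, against 135 and 15.3 in labelled KO. It followed the order of Kcnj10, with labelled KO replicate 1 highest and replicate 2 lowest. Per length, Kcnj10 exceeded Kcnj16 by 278 and 207 times in WT and by 115 and 158 times in the libraries labelled KO. Of the 11 tested inward rectifiers, 0 had an unadjusted p under 0.05 in limma, beside 13.7% of all genes, and their median log2 fold change of -0.92 was 0.09 without labelled KO replicate 2. Kcnj8, the pore of ATP-sensitive channels of mural cells (named after its values were seen), had 1.07 and 6.44 normalized counts in WT, against 1.07 and 0 in labelled KO.

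Two-pore channels conduct the background leak of potassium and need no depolarisation to open. Kcnk13 (THIK-1), known as a resting potassium channel of microglia, lies on chromosome 12 from 99964499 to 100062682 on the plus strand. It had 40.5 and 41.4 normalized counts in WT, against 272 and 860 in labelled KO. Both libraries labelled KO lay above both WT libraries, which were close together. The log2 fold change was 3.53 (standard error 0.64, 95% interval 1.93 to 5.13, adjusted p = 0.159, limma), with an adjusted p of 4.69e-06 in DESeq2 and 0.156 in edgeR. Leaving out 1 library at a time gave values from 2.70 to 4.36. A microRNA gene lies within Kcnk13 on the opposite strand, and strand use in the counting is not stated in the sources used here.

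Kcnk3 (TASK-1), a leak channel closed by acid, lies on chromosome 5 from 30588170 to 30625271 on the plus strand. It had 0 and 1.84 normalized counts in WT, or 2 reads in all, against 34.3 and 41.5 in labelled KO, or 78 reads. The ratio of the summed reads, corrected for the size factors, was 38.6 with an exact 95% counting interval of 10.3 to 325, which covers counting error only. Its WT mean of 0.92 was under the minimum of 1 for testing, which it met through the libraries labelled KO. Kcnk3 was also named for its DESeq2 call, so the ratio describes these reads and is no separate test. DESeq2 gave an adjusted p of 0.00785 and limma an adjusted p of 0.163. Even in labelled KO its level was low, at 0.389 and 0.516 FPKM. Of the named genes, Kcna6, Kcnab1, Kcnd3, Kcnip1, Kcnk1, Kcnk2, Kcnk3, Kcnk10, Kcnn1, Kcnq3 and Kcns3 likewise overlap an annotated gene on the opposite strand, so part of their reads is uncertain.

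The more abundant two-pore channels overlapped between the labels in normalized counts. Kcnk2 had 3042 and 3750 normalized counts in WT, against 4805 and 2295 in labelled KO, a log2 fold change of -0.02 (95% interval -1.11 to 1.06). Kcnk10 (TREK-2), the close relative of Kcnk2, varied least of the named genes, with 1733 and 1880 normalized counts in WT, against 2138 and 1791 in labelled KO (log2 fold change 0.12, 95% interval -0.59 to 0.82). Kcnk1 had 1625 and 2107 normalized counts in WT, 1704 in labelled KO replicate 1 and 378 in replicate 2, and labelled KO replicate 2 alone was outside the WT range in normalized counts. In FPKM both libraries labelled KO, at 34.4 and 8.37, were below WT, at 36.3 and 45.2. The 95% interval of its log2 fold change was -3.02 to 0.61. Over the 10 tested two-pore channels, 2 were higher (Kcnk13 and Kcnk3), beside 4.54% of all genes, and 1 was lower (Kcnk4), beside 9.18%, at an unadjusted p under 0.05, and the median log2 fold change was 0.38.

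Among voltage-gated pore subunits, which open on depolarisation, 1 of 25 tested genes was higher, beside 4.54% of all genes, and 5 were lower, beside 9.18%, at an unadjusted p under 0.05, with a median log2 fold change of -0.45. Kcna6 (Kv1.6) and Kcna2 (Kv1.2) are delayed rectifiers of the Shaker group. Kcna6, on chromosome 6 from 126708329 to 126740674 on the minus strand, had 754 and 1720 normalized counts in WT, against 383 and 69.4 in labelled KO. Each pair of libraries was lower in its labelled KO member (log2 fold change -2.79, standard error 0.88, adjusted p = 0.298 in limma, 0.0503 in DESeq2). Kcna2 had 276 and 369 normalized counts in WT, against 159 and 56.8 in labelled KO (log2 fold change -1.73, adjusted p = 0.321, limma).

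Kcnq3 (Kv7.3), a subunit of the M-current that restrains repeated firing of neurons, lies on chromosome 15 from 65986387 to 66286642 on the minus strand. Its libraries held 96.0 and 45.1 normalized counts in WT, against 5.35 and 14.4 in labelled KO. The groups did not overlap (log2 fold change -2.76, standard error 0.78, adjusted p = 0.264 in limma, 0.0349 in DESeq2).

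Kcnd1 (Kv4.1), an X-linked A-type channel, had 260 and 336 normalized counts in WT, against 176 and 80.2 in labelled KO, a log2 fold change of -1.31 (adjusted p = 0.361, limma). Its relative Kcnd3 overlapped between the labels, with 4956 and 2925 normalized counts in WT, against 3938 and 2172 in labelled KO (95% interval -1.49 to 0.72). Kcnh5 (EAG2) was the only voltage-gated pore subunit higher at an unadjusted p under 0.05. It had 265 and 69.9 normalized counts in WT, against 472 and 659 in labelled KO (log2 fold change 2.03, standard error 0.69, adjusted p = 0.316, limma). Kcnh1 (EAG1), its closest relative and named after its values were seen, had 101 and 20.2 normalized counts in WT, against 9.63 and 2.70 in labelled KO, the opposite arrangement. Both Kcnh genes also varied more than 2-fold within WT.

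Silent subunits make no channel alone and modify Kv2 channels. Kcnf1 (Kv5.1) had 714 and 878 normalized counts in WT, against 250 and 481 in labelled KO, without overlap (log2 fold change -1.19, standard error 0.42, adjusted p = 0.338, limma). Kcns3 (Kv9.3) had 114 and 248 normalized counts in WT, against 78.1 and 34.3 in labelled KO (log2 fold change -1.68, adjusted p = 0.359, limma). Kcns1 (Kv9.1), named after its values were seen, had the widest spread, with 233 and 413 normalized counts in WT, 239 in labelled KO replicate 1 and 1.80 in replicate 2, which came from 2 reads.

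Small-conductance calcium-activated channels link calcium signals to potassium efflux. Kcnn3 (SK3) had 1495 and 2086 normalized counts in WT, against 473 and 902 in labelled KO, and its log2 fold change was -1.43 (standard error 0.42, 95% interval -2.49 to -0.38, adjusted p = 0.275, limma). Kcnn1 (SK1) had 245 and 239 normalized counts in WT, against 99.5 and 55.9 in labelled KO, and its log2 fold change was -1.69 (standard error 0.47, 95% interval -2.86 to -0.51, adjusted p = 0.256, limma). In both genes both libraries labelled KO were below both WT libraries, which were close together in Kcnn1. Of the 8 tested calcium- and sodium-activated channels, 3 were lower (Kcnn1, Kcnn3 and the sodium-activated Kcnt1), beside 9.18% of all genes, and 0 were higher, beside 4.54%, at an unadjusted p under 0.05 in limma, with a median log2 fold change of -1.19.

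Auxiliary subunits bind the pore subunits and lay in both directions. Kcnip1, a calcium-binding partner of Kv4 channels, had 88.6 and 181 normalized counts in WT, against 245 and 480 in labelled KO (log2 fold change 1.43, adjusted p = 0.359, limma). Kcnip1 overlaps Kcnmb1 and other annotated genes, so part of its reads is uncertain. Kcnip3, of the same calcium-binding family, overlapped between the labels, with 456 and 381 normalized counts in WT, against 503 and 212 in labelled KO. Kcnab1, a cytoplasmic partner of Kv1 channels, had 144 and 369 normalized counts in WT, against 94.2 and 27.0 in labelled KO (log2 fold change -2.16, adjusted p = 0.346, limma). Kcne1l had 213 and 1120 normalized counts in WT, against 1922 and 744 in labelled KO, with more than 5-fold between the WT libraries themselves. Of 14 tested auxiliary subunits, 1 was higher, beside 4.54% of all genes, and 1 lower, beside 9.18%, at an unadjusted p under 0.05, and the median log2 fold change of -0.43 became 0.13 without labelled KO replicate 2.

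**Figure D3:**
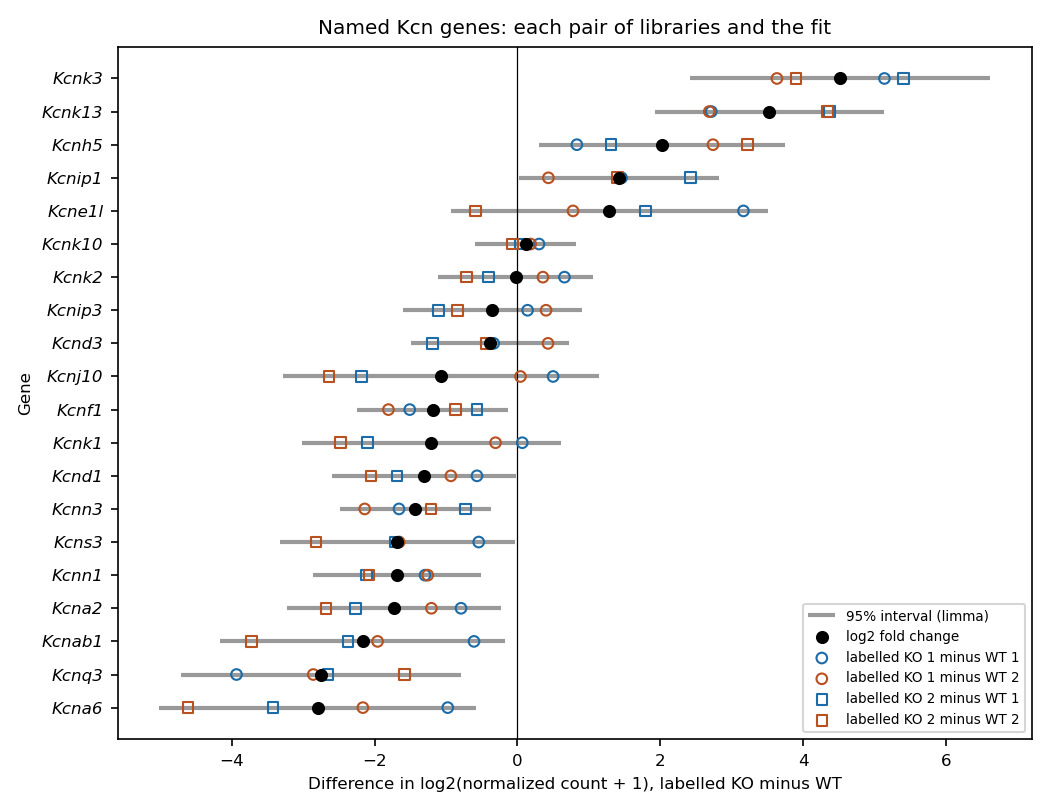
Differences in log2(normalized count + 1) between labelled KO and WT for the 20 named potassium channel genes, with open symbols for the 4 pairs of libraries, black points for the log2 fold change and grey bars for its 95% interval from limma. All 4 pairs lie above 0 for Kcnk3, Kcnk13, Kcnh5 and Kcnip1. They lie below 0 for the 9 genes Kcnf1, Kcnd1, Kcnn3, Kcns3, Kcnn1, Kcna2, Kcnab1, Kcnq3 and Kcna6. Each of these genes met a naming rule on its difference in these same libraries, so its position is no separate support. Of all tested genes, 47.9% did not overlap between the labels. The squares of labelled KO replicate 2 lie far to the left of the circles for Kcnj10 and Kcnk1.

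Libraries that did not overlap were also counted over the family. Among the 73 tested Kcn genes, 11 were higher in both libraries labelled KO than in both WT libraries, beside 22.5% of all tested genes, and 24 were lower, beside 25.4%. In either direction these were 35 Kcn genes, or 47.9%, and the share of all tested genes was also 47.9%. Among the 33 Kcn genes with a mean of at least 50 normalized counts, 3 were higher (Kcnh5, Kcnip1 and Kcnk13), beside 28.4% of all genes at that level, and 11 were lower, beside 21.9%, or 14 in either direction, beside 50.3%. At this level 11 Kcn genes had an unadjusted p under 0.05 in limma, beside 15.1% of all genes, of which 3 were higher, beside 6.05%, and 8 lower, beside 9.07%.

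Potassium channel genes varied widely between libraries with the same label. Among the 33 Kcn genes at that level, 24 (72.7%) differed more than 2-fold between the libraries labelled KO, beside 28.8% of all genes at that level. Between the WT libraries 12 (36.4%) did so, beside 10.7%. The arrangement was also present at high levels. With a mean of at least 500, 7 of 11 Kcn genes differed more than 2-fold between the libraries labelled KO, beside 22.6% of all genes, and with a mean of 50 to 500, 17 of 22 did, beside 37.9%. Between the WT libraries, 2 of the 11 abundant genes (Kcna6 and Kcne1l) differed this much, beside 6.06% of all genes. In 19 of the 33 genes labelled KO replicate 2 was more than 2-fold below replicate 1, beside 14.3% of all genes, and in 5 it was more than 2-fold above, beside 14.5%. All 7 of the abundant genes that differed, among them Kcna6, Kcnc1, Kcne1l, Kcnj10, Kcnk1 and Kcnk2, were lower in replicate 2. These shares describe the libraries and were not tested. Labelled KO replicate 2 was also the library with the lowest astrocyte and ependymal marker sums and the highest proliferation marker sum, and their part in this spread was not tested.

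**Figure D4:**
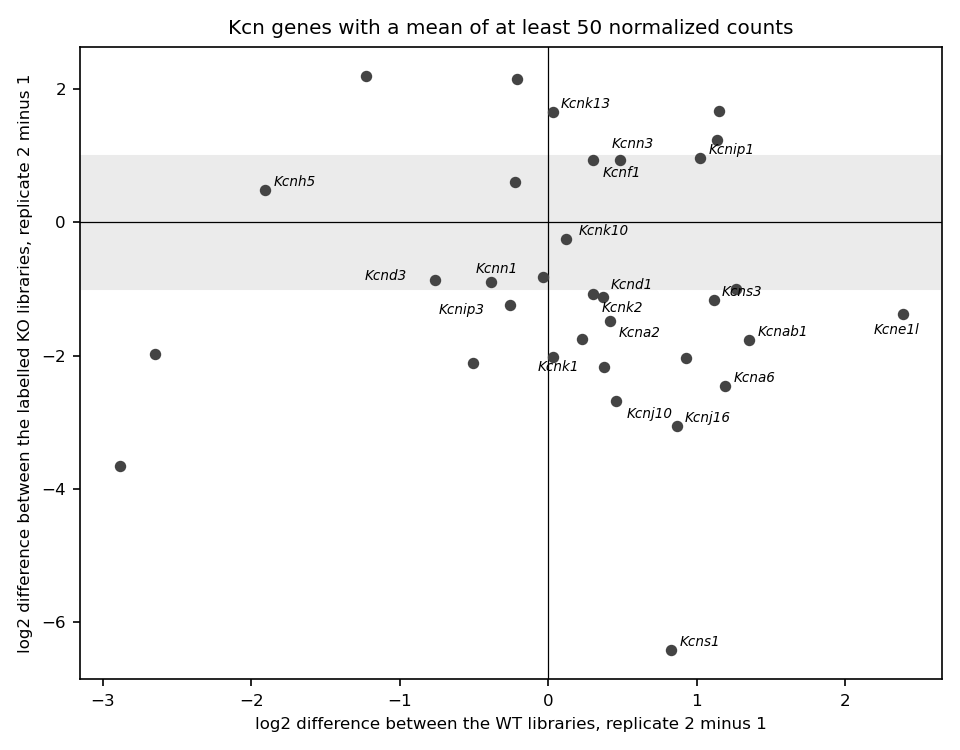
Difference in log2(normalized count + 1) between the libraries of each label, replicate 2 minus replicate 1, for the 33 potassium channel genes with a mean of at least 50 normalized counts, with WT on the horizontal and labelled KO on the vertical axis. The grey band marks differences of up to 2-fold between the libraries labelled KO, and 18 of the 33 points lie below it, with 1 more at its lower edge.

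Genes that work with Kir4.1 in potassium and water handling were compared from a list of partners. Of 10 partners, 0 had an adjusted p under 0.05 in limma, 3 were lower at an unadjusted p under 0.05 (among them Slc1a2 and Gjb6), beside 9.18% of all genes, and 0 were higher, beside 4.54%, with a median log2 fold change of -1.24. Atp1b2, a beta subunit of the sodium pump, had 15370 and 11568 normalized counts in WT, 19407 in labelled KO replicate 1 and 1585 in replicate 2, the arrangement of Kcnj10. Aqp4, the water channel of astrocyte endfeet, had 16135 and 11461 normalized counts in WT, against 10259 and 3337 in labelled KO (adjusted p = 0.436, limma). Slc1a2 (GLT-1), the main glutamate transporter, had 11394 and 5793 normalized counts in WT, against 3078 and 597 in labelled KO (log2 fold change -2.58, adjusted p = 0.301, limma). Without overlap, 6 of the 10 partners were lower, beside 25.4% of all tested genes, and 1 was higher, beside 22.5%. The higher one was Gja1, the connexin that couples astrocytes. It had 3557 and 5231 normalized counts in WT, against 7361 and 6344 in labelled KO (log2 fold change 0.66, adjusted p = 0.443, limma).

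**Figure D5:**
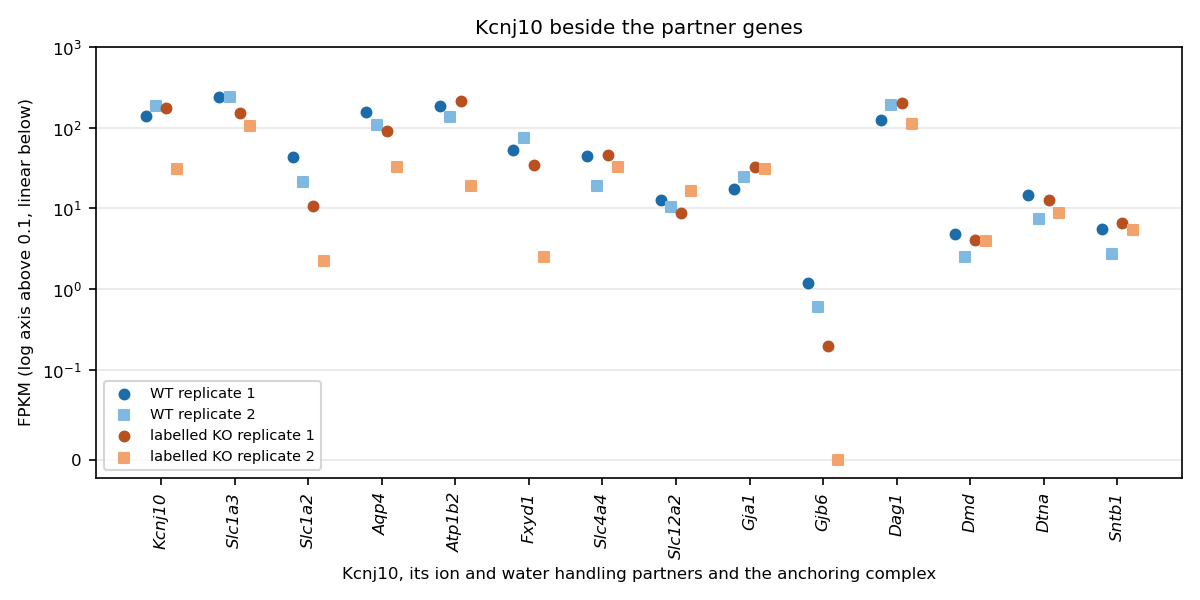
FPKM of Kcnj10, of 9 ion and water handling partners and of 4 genes of the anchoring complex, with 1 point per library, on an axis that is logarithmic above 0.1. Slc1a2 is lower in both libraries labelled KO than in both WT libraries, whereas Kcnj10 and Atp1b2 are low in labelled KO replicate 2 alone.

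The dystrophin-linked complex that holds Kir4.1 at the membrane overlapped between the labels in all 5 genes, among them Dmd, Dag1, Sntb1 and Dtna. Their median log2 fold change was 0.07, and 0 had an unadjusted p under 0.05 in limma, beside 13.7% of all genes. Dag1, the most abundant, had 15915 and 25338 normalized counts in WT, against 28684 and 14406 in labelled KO. Of 9 channel subunits without a Kcn symbol, 7 had values, 0 had an unadjusted p under 0.05, beside 13.7%, and the most abundant was Amigo1, a partner of Kv2 channels, with 1421 and 1461 normalized counts in WT, against 990 and 443 in labelled KO.

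The remaining marker lists bear on the cells that could share these channels, and their counts stand beside 4.54% of all genes higher and 9.18% lower at an unadjusted p under 0.05. Of 10 oligodendrocyte lineage markers, 1 was lower (Cspg4) and 0 higher at an unadjusted p under 0.05, with sums of 217 and 324 FPKM in WT, against 431 and 244 in labelled KO, led by Olig1, while Sox10, Mag and Mog had a library at 0. Of 9 endothelial and mural markers with values, 1 was higher (Acta2) and 1 lower (Rgs5), with Cdh5 at 0 in a library. The sums of 80.5 and 270 FPKM in WT, against 589 and 1413 in labelled KO, were led by Acta2. Without Acta2 they overlapped, at 24.9 and 30.5 FPKM in WT, against 25.7 and 17.9 in labelled KO. Of 8 meningeal markers, 1 was higher (Col1a2) and 1 lower (Dcn), with sums of 2.85 and 12.4 FPKM in WT, against 8.53 and 9.05 in labelled KO, led by Col1a2, and Igf2, Lum and Slc6a13 had a library at 0. Of 9 tested neuronal markers, 2 were higher (Tubb3 and Dcx) and 1 lower (Gad1), while Dcx, Gad2 and Snap25 had a library at 0. Without overlap, 6 of them were higher, beside 22.5% of all tested genes, and 1 lower, beside 25.4%, with a median log2 fold change of 1.66. Dcx, Gad2, Rbfox3 and Slc17a7 had at most 1 read in a WT library. These genes met the mean minimum of 1 through the libraries labelled KO. The neuronal marker sums were 20.3 and 23.8 FPKM in WT, against 29.1 and 30.1 in labelled KO, led by Stmn2. Without Stmn2 the sums overlapped, at 13.0 and 8.16 FPKM in WT, against 11.2 and 17.6 in labelled KO. The part of these marker lists in the channel differences was not tested.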

How the data were processed

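Clean paired-end reads (Illumina) were mapped to mm10 by the authors, with aligner, counter and annotation release not given in the sources used here. The deposited table holds 1 signal value for each gene in each library. Its name speaks of FPKM, but each value was a number of reads over a size factor, uncorrected for gene length: 100% were whole multiples of 1 read, within 0.01 reads, in each library, so whole reads were recovered. Size factors lay between 0.934 and 1.11. The authors also deposited genotype means as signal, log2 fold changes, p-values and other gene columns such as length. The authors' own comparison was not used, and 0 unmapped sample columns were present.

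FPKM was computed from recovered reads, gene length and reads on genes. limma 3.58.1 (R 4.3.3; variance trend, no block) was fitted to log2(normalized count + 1) over the 22094 genes whose mean reached 1, with p-values adjusted by Benjamini-Hochberg. This scale understates changes of low genes. The test had been planned for FPKM and was kept for these values. edgeR 4.0.16 and DESeq2 1.42.0 used the recovered reads. Scripts were tested on simulated data. Libraries with 1 label differed by more than sampling noise (median chi-square per gene 8.04 in WT and 27.1 in labelled KO, against 0.455). Members, lists and alternatives were chosen with earlier results of these data known. Named with values were the 12 highest Kcn genes by FPKM, the highest of each class, those with an adjusted p under 0.05 in limma or DESeq2, and those with an unadjusted limma p under 0.05 and a mean of at least 50; other Kcn genes are named after their values were seen where the text says so or where they are members of a count. Positions are those of the deposited table; 78 of 81 members had the same start and end in GENCODE M21. Of the members, 36 overlap an annotated antisense gene. Values of some single genes that enter the counts and sums are not reported here.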

Additional observations from a re-analysis of the deposited data

Results flagged for a closer look

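Kcnmb4os2, an antisense transcript of a Kcn locus that is not protein coding and so stands outside the counts of Kcn genes, had 0 reads in both WT libraries and 3 and 5 reads in the libraries labelled KO, a mean of 3.86 normalized counts. It is listed because it exceeded WT in a gene that the report does not use. In the limma fit over all genes it had a log2 fold change of 2.27 (adjusted p = 0.306), and at these read numbers it lies close to the detection floor of 3 reads.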

How the results depend on the processing

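The count of Kcn genes at an adjusted p under 0.05 was 0 in each limma and edgeR setting and 3 in DESeq2. At an unadjusted p under 0.05, quantile normalization gave 7 higher and 5 lower, beside 6.41% and 6.74% of all genes, and log2(FPKM + 0.1) gave 6 lower, beside 9.25%. With each library left out, the counts ran from 2 to 4 higher, beside 1.24% to 8.24% of all genes, and from 0 to 18 lower, beside 3.90% to 13.7%. The median log2 fold change of all Kcn genes was -0.22 after quantile normalization and from -0.72 to -0.15 with each library left out. By class, that range was -1.46 to 0.092 for inward rectifiers, 0.028 to 0.68 for two-pore channels, -0.54 to -0.26 for voltage-gated pore subunits, -1.34 to -0.51 for silent subunits, -1.46 to -0.93 for calcium- and sodium-activated channels and -0.73 to 0.13 for auxiliary subunits. The two-pore median was 0.64 with a mean minimum of 0.1, of 5 or none and 0.12 with a minimum of 10. For voltage-gated pore subunits the median was -0.66 with minimums of 5 and 10 and -0.092 after quantile normalization. For calcium- and sodium-activated channels it was -0.76 after quantile normalization and -0.57 with log2(FPKM + 0.1). A changed minimum alters which genes are tested; for the other settings the cause was not tested.

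Of the named genes, Kcnk2 turned to 0.031 in edgeR and 0.064 in DESeq2, and Kcnj16 to 0.24 after quantile normalization, 0.39 in edgeR and 0.42 in DESeq2. With each library left out, Kcnj10 ran from -2.41 to 0.27, Kcnj16 from -1.74 to 1.32, Kcnk2 from -0.56 to 0.51, Kcnd3 from -0.81 to 0.049, Kcnip3 from -0.97 to 0.27 and Kcnk10 from -0.011 to 0.24; in each of them the direction turned with at least 1 library left out. The other 15 named genes kept their direction in all settings run, but not their size. Without labelled KO replicate 2, Kcna6 was at -1.57, Kcna2 at -0.997, Kcnab1 at -1.28, Kcnd1 at -0.75, Kcns3 at -1.10, Kcnip1 at 0.95 and Kcnk1 at -0.12. Kcnk1 was at -2.29 and Kcnf1 at -0.72 without labelled KO replicate 1, Kcnh5 at 1.07 without WT replicate 2 and Kcnip1 at 0.92 without WT replicate 1, and Kcne1l ran from 0.095 to 2.48. With log2(FPKM + 0.1), Kcnq3 was at -1.30 and Kcnk3 at 2.31, and Kcnk3 was at 8.11 with a pseudocount of 0.01.

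The replicate numbers were not taken as a pairing, since the study compares groups with an unpaired test and names no covariate. As a check, libraries that share a number deviated from their label means with a correlation of -0.08. With the replicate number as a block, 0 Kcn genes had an adjusted p under 0.05, and 4 were higher, beside 3.45% of all genes, and 9 lower, beside 8.24%, at an unadjusted p under 0.05 in limma. Depth limits the genes near the floor: in 11 of the 81 genes no library had more than 3 reads.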

Other observations

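Non-coding Kcn symbols were fitted with all genes but left out of the counts of Kcn genes. Kcnq1ot1, an imprinted antisense RNA of the Kcnq1 locus, had 590 and 209 normalized counts in WT, 28.9 in labelled KO replicate 1 and 403 in replicate 2 (adjusted p = 0.605, limma). Kcnd3os, antisense to Kcnd3, had 134 and 67.1 normalized counts in WT, 56.7 in labelled KO replicate 1 and 30.6 in replicate 2 (adjusted p = 0.469, limma).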
